A study of Mus musculus with 2 samples.

Results

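The progestin and adipoQ receptor (PAQR) family was followed in liver RNA of Pgrmc1 KO and WT mice. Its members were taken by gene symbol from the deposited table of transcript levels: Adipor1 and Adipor2, the adiponectin receptors, and Paqr3 to Paqr9. All 9 were found among the 24054 genes listed. The KO livers came from male C57BL/6 mice with a whole-body deletion of exons 1 and 2 of the X-linked Pgrmc1 gene (Pgrmc1 -/Y), made by crossing a floxed allele, generated in C57BL/6N, to mice with a Sox2-Cre transgene. C57BL/6 is the strain the labels give for both groups. The WT livers came from male mice too, and whether these carried the Cre transgene is not given in the sources used here. Mice of both groups were 8 to 12 weeks old. RNA of 5 mice per genotype was pooled, 2.5 μg from each, before library preparation, so each genotype is 1 library. How much single mice differ was therefore not measured, and none of the differences below has a replicate check or a p-value.

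PAQR proteins span the membrane several times and fall into branches with different ligands. AdipoR1 and AdipoR2 bind adiponectin, a hormone from fat, and are linked in liver to AMP-activated protein kinase (AMPK) and to the nuclear receptor PPAR alpha. They also act on ceramide, a membrane lipid. Paqr5 to Paqr9 encode membrane progestin receptors (mPR gamma, delta, alpha, beta and epsilon), which respond to progesterone at the cell surface, whereas Paqr3 and Paqr4 encode Golgi proteins close to the adiponectin receptors in sequence. Pgrmc1 itself belongs to another protein family, the heme-binding relatives of cytochrome b5, although its name also refers to progesterone.

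A sequence feature that the 9 genes share is shown first, since the rule that chose them used only their names, and since likeness of sequence bears on how far their reads can be told apart. In AdipoR1 and AdipoR2 a pair of histidines near the end of the protein is part of the site that holds a zinc ion within the membrane. Codons for 2 histidines with 3 codons between them were searched in frame in the last 30% of each coding part, in GENCODE transcripts of GRCm38 (the mm10 assembly). Every one of the 9 genes had exactly 1 such pair, and in each of them the first histidine was followed by a glutamine codon. Of 21595 genes with a complete coding part, 13.4% had at least 1 pair in that stretch, and 1.97% had a pair followed by glutamine. A match is a description of the sequence and not a measurement of zinc binding. The 39 coding bases around each pair are given 5′ to 3′ in lower case with the 2 histidine codons in capitals.
Adipor1: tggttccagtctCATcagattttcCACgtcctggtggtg
Adipor2: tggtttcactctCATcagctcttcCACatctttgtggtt
Paqr3: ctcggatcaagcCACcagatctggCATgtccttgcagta
Paqr4: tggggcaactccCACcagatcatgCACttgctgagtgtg
Paqr5: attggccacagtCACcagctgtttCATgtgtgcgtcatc
Paqr6: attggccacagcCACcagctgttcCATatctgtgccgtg
Paqr7: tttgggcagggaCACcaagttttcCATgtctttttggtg
Paqr8: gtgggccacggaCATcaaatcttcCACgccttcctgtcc
Paqr9: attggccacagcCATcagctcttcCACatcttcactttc

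The histidine pair lay at codons 337 and 341 of 375 in Adipor1, at 348 and 352 of 386 in Adipor2 and at 309 and 313 of 375 in Paqr9. This stretch also holds the longest run of identical coding bases that any 2 members share. Adipor2 and Paqr9 have the 20 bases CATCAGCTCTTCCACATCTT in common there. In the other 35 pairs of members the longest shared coding run was 17 bases, and over whole transcripts 20 bases was again the longest run of any pair. No window of 100 bases, the read length, in the transcripts of Adipor1, Adipor2, Paqr3, Paqr4, Paqr5, Paqr7, Paqr8 or Paqr9 was found in a transcript of another gene. In Paqr6, 12.6% of windows were also found in the gene models Gm21956 and Gm6821. The aligner can therefore have shared reads of Paqr6 with other genes, although neither gene model is listed by symbol among the deposited genes. The other members had no exact match at this length, which does not show where the aligner placed their reads. The estimated read counts of Adipor1, Adipor2, Paqr7 and Paqr9 were not within 0.02 of a whole number in every library. Those of the remaining members, Paqr6 included, were. The cause was not tested.

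The genes lie apart from each other in the genome. On GRCm38, Adipor1 is on chromosome 1 (134415378 to 134433351, plus strand), Adipor2 on chromosome 6 (119353150 to 119417699, minus strand) and Paqr9 on chromosome 9 (95559634 to 95568022, plus strand). Paqr9 differs from the other 8 in having its transcript in 1 exon, where the others have 3 to 8. Paqr7 is on chromosome 4 (134496761 to 134510237, plus strand) and Paqr3 on chromosome 5 (97081364 to 97111749, minus strand), where it overlaps Bmp2k on the opposite strand. Paqr4, on chromosome 17 (23736186 to 23740899, minus strand), overlaps Pkmyt1 on the opposite strand.

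The libraries followed their labels: Pgrmc1 was at 0.68 TPM in KO against 949.49 TPM in WT. TPM, a share of all transcripts, is a level per transcript length, so levels of different genes can be compared. An estimated 22086688 reads in KO and 29710410 reads in WT lay on the genes of a second deposited table, the authors' library means. Each difference is the log2 of KO over WT after adding 1 TPM to both, which understates the difference of low genes. Where a 95% interval is given, it belongs to the log2 ratio of those library means (Clopper-Pearson, on the estimated reads as whole numbers) and covers counting error only. Marker lists of 6 cell types showed the tissue as labelled: Alb, the serum albumin gene of hepatocytes, was at 47242 TPM in KO against 49729 TPM in WT. Of 29 marker genes averaging 1 TPM or more, 0 passed a fold of 1.4 upward, as 1.21% of all genes did, or 0.6 downward, as 0.301% did. Lyve1 (endothelium), Epcam (bile duct) and Rgs5 (mural cells), the lowest of their lists, had folds of 0.658, 0.665 and 0.693. The 6 Kupffer cell (liver macrophage) markers all lay above 0, from 0.10 for Vsig4 to 0.19 for Clec4f, and their summed level was 211.7 TPM in KO against 188.3 TPM in WT. The 6 hepatocyte markers all lay below 0, from -0.28 for Tat to -0.004 for Apoa1. The 6 endothelial markers all lay below 0 as well, from -0.60 for Lyve1 to -0.04 for Stab2. The 6 stellate and mural cell markers ran from -0.53 for Rgs5 to 0.17 for Lrat, and the 4 cholangiocyte markers with the minimum from -0.59 for Epcam to 0.01 for Krt19. The level of adipocyte markers was low, at a sum of 2.74 TPM in KO against 2.56 TPM in WT over 5 genes. Most of that sum was Cidec, at 2.18 TPM in KO against 2.19 TPM in WT, and no other of the 5 had the minimum. In bulk RNA, fewer cells of a type and less RNA per cell cannot be told apart.

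The liver transcripts of the family came almost wholly from 3 genes. In WT, Adipor2 stood at 248.06 TPM, Paqr9 at 168.31 TPM and Adipor1 at 74.55 TPM. In KO, Adipor2 was at 238.52 TPM, Paqr9 at 196.92 TPM and Adipor1 at 74.27 TPM. Paqr7 followed at 13.67 TPM in WT against 15.61 TPM in KO, and Paqr3 at 5.70 TPM in WT against 7.13 TPM in KO. Paqr4 was near 1 TPM, Paqr8 below it, and Paqr5 and Paqr6 were below 0.1 TPM in both libraries. The order of the 7 genes from Adipor2 to Paqr8 was the same in both libraries. The order of Paqr5 and Paqr6 was not, at 2 reads or fewer in each library. Adipor2 ranked at 456 of 24054 genes in WT and at 474 in KO, and Paqr9 at 653 in WT and 580 in KO.

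**Figure D1:**
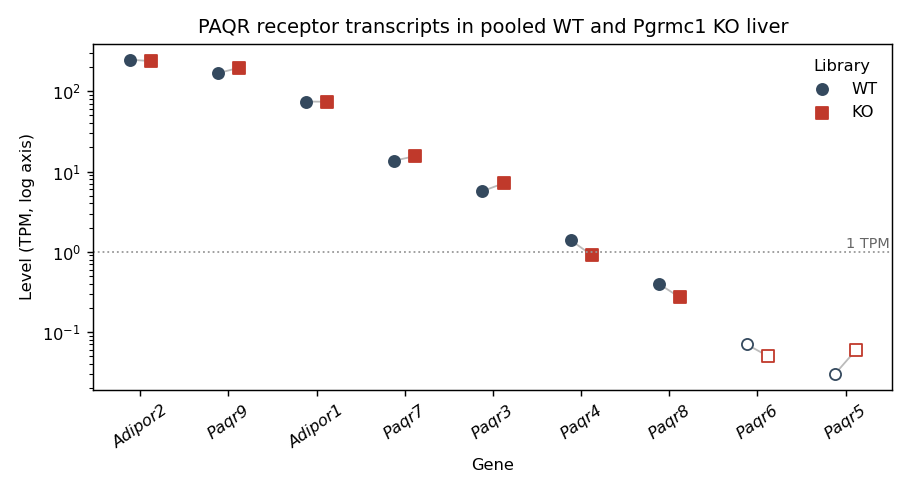
Level of each receptor transcript in TPM on a log axis, with circles for the WT library and squares for the KO library (1 pooled library each, no error bars). Open symbols mark Paqr5 and Paqr6, which had 2 reads or fewer in each library, and the dotted line marks 1 TPM. The levels span from 248.06 TPM for Adipor2 in WT to 0.03 TPM for Paqr5 in WT, and the 2 symbols of each filled gene lie close to each other on this scale.

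Of the 9 members, 6 averaged at least 1 TPM over the 2 libraries. Among these 6, 0 passed a fold of at least 1.4 upward, against 1.21% of the 11623 genes that did. Downward, at a fold of at most 0.6, 0 of the 6 passed, against 0.301% of genes. With so few genes past these thresholds anywhere, a count of 0 among 6 is near the background. At a fold of 1.2, 1 member, Paqr3, was past the threshold upward, against 5.39% of genes, and 1 member, Paqr4, was past it downward, against 5.51%. The median log2 difference of the 6 was 0.09, and 3 of the 6 lay above 0. The median of all 11623 genes was -0.01, with the 5th and 95th percentiles at -0.27 and 0.27.

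**Figure D2:**
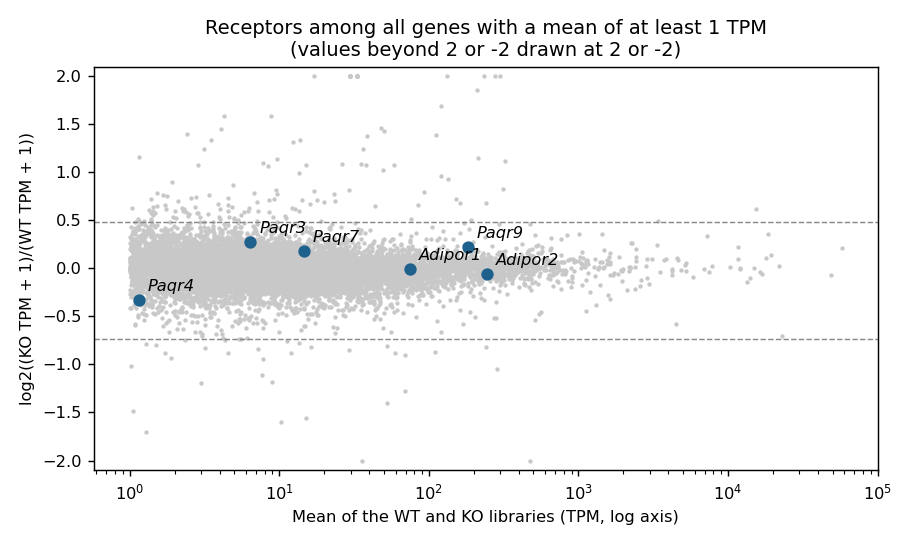
Log2 difference between KO and WT (y axis) against the mean level of the 2 libraries in TPM on a log axis, for the 11623 genes averaging 1 TPM or more (grey) and the 6 receptors among them (blue, named). Dashed lines mark folds of 1.4 and 0.6. All 6 receptors lie between the lines, from -0.33 for Paqr4 to 0.28 for Paqr3.

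Adipor1, the receptor linked mainly to AMPK, differed by less than counting error between the libraries. Its 74.27 TPM in KO against 74.55 TPM in WT give a log2 difference of -0.01, with an interval of -0.08 to 0.09 on 1940 reads in KO and 2604 reads in WT. Of 1567 genes with a mean within 2-fold of that of Adipor1, 3.83% had a difference as small or smaller. Pooling still hides the spread between mice, so the interval limits counting error alone.

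Adipor2, the receptor linked mainly to PPAR alpha and the most abundant member, was at 238.52 TPM in KO against 248.06 TPM in WT. The log2 difference was -0.06, with an interval of -0.08 to -0.01 on 12758 and 17775 reads. That interval lies just below 0, and the difference was larger than that of 45.1% of the 636 genes of like level. Within a library, the level of Adipor2 was 3.21 times that of Adipor1 in KO and 3.33 times in WT. The summed level of both receptors was 312.8 TPM in KO against 322.6 TPM in WT, a ratio of 0.970.

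The membrane progestin receptors were carried by Paqr9 (mPR epsilon). Paqr9 was at 196.92 TPM in KO against 168.31 TPM in WT, a log2 difference of 0.23 and a fold of 1.17. The interval was 0.19 to 0.29 on 5926 reads in KO and 6776 reads in WT, so the KO library was higher by more than counting error. The difference was larger than that of 91.2% of the 773 genes of like level, and it lies inside the 5th to 95th percentiles of all genes past the minimum (-0.27 to 0.27) but above those of the 6235 genes averaging at least 10 TPM (-0.25 to 0.20). The 6 Kupffer cell markers differed in the same direction, with a ratio of 1.12 in their summed level. The summed level of 6 hepatocyte markers, most of it from Alb, had a ratio of 0.953. The part of these cell types in the higher level of Paqr9 was not tested.

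Paqr7 (mPR alpha), the progestin receptor best known from oocytes and sperm, was the other one clearly detected. It was at 15.61 TPM in KO against 13.67 TPM in WT, a log2 difference of 0.18. The interval was 0.07 to 0.35, on 784 and 915 reads. The KO library was again the higher one, and the difference exceeded that of 82.6% of 4380 genes of like level. Paqr9 stood 12.6 times as high as Paqr7 in KO and 12.3 times in WT, so the ratio between these receptors hardly differed between the libraries.

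The other membrane progestin receptors were at or near the limit of detection. Paqr8 (mPR beta), a receptor of brain and other tissues, was at 0.27 TPM in KO against 0.40 TPM in WT, on 15 and 31 reads. Its log2 difference was -0.14 with 1 TPM added, the ratio of the library means was -0.61 on the log2 scale, and the interval of -1.61 to 0.32 holds 0. Paqr5 (mPR gamma) was listed at 0.06 TPM in KO against 0.03 TPM in WT, on 2 reads and 1 read. Paqr6 (mPR delta) was listed at 0.05 TPM in KO against 0.07 TPM in WT, on 0 reads and 1 read. The listed level of Paqr6 in KO is above 0 although no read was counted, because the deposited TPM are posterior means. A count of 0 allows up to 3 reads, so no fold is given for Paqr5 or Paqr6 and a difference between genotypes was not detectable at this depth. Summed over all 5, the membrane progestin receptors stood at 212.9 TPM in KO against 182.5 TPM in WT, a ratio of 1.17 that is nearly that of Paqr9 alone.

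Paqr3 and Paqr4 are the members closest to the adiponectin receptors. Paqr3, a Golgi protein, was at 7.13 TPM in KO against 5.70 TPM in WT, a log2 difference of 0.28. With 120 and 128 reads, its interval of -0.03 to 0.71 holds 0, although the difference was larger than that of 90.8% of 4067 genes of like level. Bmp2k, on the opposite strand, differed by -0.04. Paqr4, which has been linked to stability of the cell cycle kinase Cdk4, was at 0.91 TPM in KO against 1.4 TPM in WT, a log2 difference of -0.33 on 29 and 61 reads. Its interval of -1.33 to 0.02 holds 0 as well. Pkmyt1, which overlaps Paqr4 on the opposite strand, was at 0.79 TPM in KO against 1.5 TPM in WT, and its part in the value of Paqr4 was not tested. The kit keeps the strand, and the methods name RSEM's forward-prob option for strand, but its value is not given in the sources used here.

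**Figure D3:**
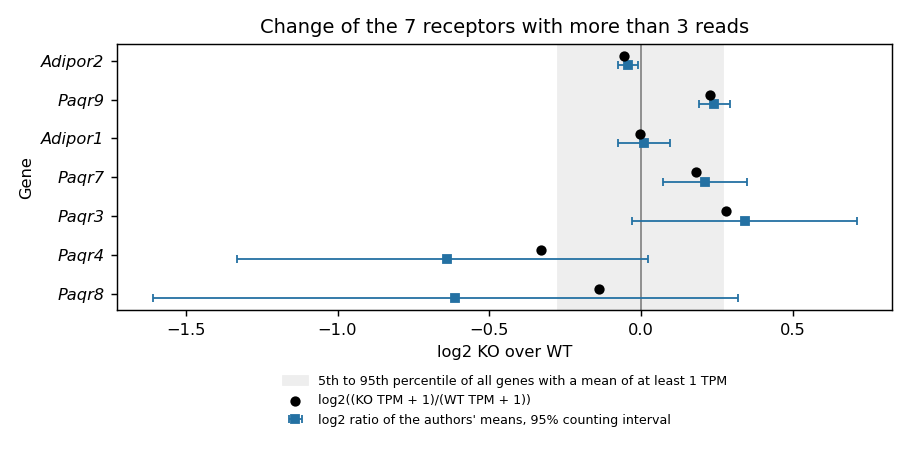
Log2 difference of KO over WT for the 7 receptors with more than 3 reads in a library, ordered by level. Black points are the TPM differences with 1 TPM added, blue squares the ratios of the authors' means with 95% counting intervals, and the grey band runs from -0.27 to 0.27, the 5th to 95th percentiles of all genes past the minimum. The intervals of Paqr9 and Paqr7 lie above 0, that of Adipor2 lies just below it, and the other 4 hold 0.

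The make-up of the family differed a little between the libraries. The sum of the 9 genes was 533.7 TPM in KO against 512.2 TPM in WT, a ratio of 1.04. Adipor2 made up 44.7% of it in KO and 48.4% in WT, whereas Paqr9 made up 36.9% in KO and 32.9% in WT. The level of Adipor2 was 1.21 times that of Paqr9 in KO and 1.47 times in WT. Adipor1 held 13.9% in KO and 14.6% in WT. The progestin receptors together made up 39.9% of the family's transcripts in KO and 35.6% in WT. Without Adipor2, the log2 ratio of the summed family went from 0.06 to 0.16.

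**Figure D4:**
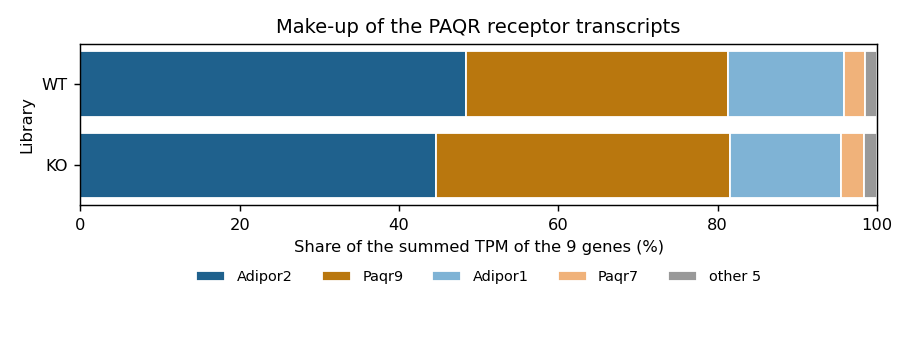
Share of the summed TPM of the 9 receptor genes (x axis, percent) taken by each of the 4 most abundant ones and by the other 5 together, in the WT and the KO library. Adipor2 takes 48.4% in WT and 44.7% in KO, and Paqr9 32.9% and 36.9%.

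Mmd and Mmd2 encode the remaining proteins of the same fold and were compared as relatives. Mmd, which is widely expressed and first described in maturing monocytes, was at 74.36 TPM in KO against 65.07 TPM in WT, a log2 difference of 0.19 (interval 0.13 to 0.28). Mmd2 was at 2.40 TPM in KO against 3.22 TPM in WT, a difference of -0.31 whose interval of -0.87 to 0.03 holds 0. Neither passed a fold of 1.4 or 0.6.

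The genes around the receptors were described with 11 lists of 112 genes written from general knowledge, of which 90 averaged at least 1 TPM. Among these 90, 1 gene passed the fold of 1.4 upward, a count near the background of 1.21% of all genes. Downward, 1 gene passed the fold of 0.6, against 0.301% of all genes. It was Pgrmc1, the deleted gene, whose fall was set by the design, so that count is not weighed against the background. The gene past the fold upward was G6pc, the catalytic subunit of glucose-6-phosphatase. It was at 445.52 TPM in KO against 204.76 TPM in WT, a log2 difference of 1.12. G6pc was in a list of 3 genes that adiponectin signalling is known to hold down. Pck1, the other gluconeogenic enzyme of that list and its most abundant member, lay at -0.21 and Srebf1, a regulator of lipid synthesis, at -0.03.

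On the ligand side, Adipoq, the adiponectin gene of fat cells, was listed at 0.07 TPM in KO against 0.10 TPM in WT, at or under 3 reads in each. Of 11 genes for adiponectin-like ligands and the binding protein T-cadherin, 5 passed the minimum of 1 TPM, with a median difference of -0.04. They ran from -0.24 for Cdh13, the T-cadherin gene, to 0.14 for Fam132a (C1qtnf12). The most abundant of them was C1qtnf1, at 8.36 TPM in KO against 8.16 TPM in WT. Pgr, the nuclear progesterone receptor, was listed at 0.01 TPM in both libraries. Of the other heme-binding relatives of Pgrmc1, Pgrmc2 was at 22.40 TPM in KO against 26.74 TPM in WT, a difference of -0.25, while Cyb5d2 lay at 0.03.

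Downstream of the adiponectin receptors, 15 genes of the APPL adaptors and of the LKB1 and AMPK kinases had a median difference of -0.04, with 6 above 0. Stk11, which encodes LKB1, was the most abundant at 46.75 TPM in KO against 44.93 TPM in WT. The highest was Camkk2, an upstream kinase of AMPK, at 5.19 TPM in KO against 3.93 TPM in WT, with a difference of 0.33 (interval 0.19 to 0.63). The lowest was Sirt1, a deacetylase, at -0.17 with an interval that holds 0. The 7 genes of the PPAR alpha arm had a median of 0.04. That list ran from -0.30 for the coactivator Ppargc1a to 0.10 for Ucp2.

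Ceramide is the lipid that adiponectin receptors are known to break down. Of 29 genes of ceramide and sphingosine metabolism, 21 passed the minimum, and 0 of them passed the fold in either direction, against 1.21% of all genes upward and 0.301% downward, so this count is near the background. Their median difference was -0.02, and they ran from -0.14 for the ceramidase Acer2 to 0.17 for the sphingosine kinase Sphk2. Cers2, the main ceramide synthase of liver, was at 184.79 TPM in KO against 187.35 TPM in WT. The 9 genes of membrane fluidity, which AdipoR2 is known to maintain, had a median of -0.06. Scd1, the stearoyl-CoA desaturase that makes monounsaturated fatty acids, was both the most abundant and the lowest of them, at 3593 TPM in KO against 5380 TPM in WT. Its difference of -0.58 is a fold of 0.668, short of 0.6. Tlcd2 was the highest, at 0.13.

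Some progestin receptors, such as mPR alpha, are described as acting through G proteins that inhibit adenylyl cyclase. That description is not extended here to mPR epsilon (Paqr9), the most abundant of them in both libraries. Among 8 genes of G protein subunits and adenylyl cyclases with the minimum, the median was -0.03, and the values ran from -0.17 for Gnai3, an inhibitory subunit, to 0.14 for the cyclase Adcy6. Gnas, the stimulatory subunit and the most abundant of the list, was at 311.84 TPM in KO against 315.09 TPM in WT. Of 12 described partners of Paqr3, the median was -0.01 and 0 passed the fold, again near the background of 1.21% and 0.301%. Insig1, a brake on sterol synthesis, was the most abundant and the lowest at -0.35. The 4 described partners of Paqr4 and Paqr9 ran from -0.07 for Bag6 to 0.05 for Skp2, and Huwe1, the most abundant, was at 42.19 TPM in KO against 43.38 TPM in WT.

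**Figure D5:**
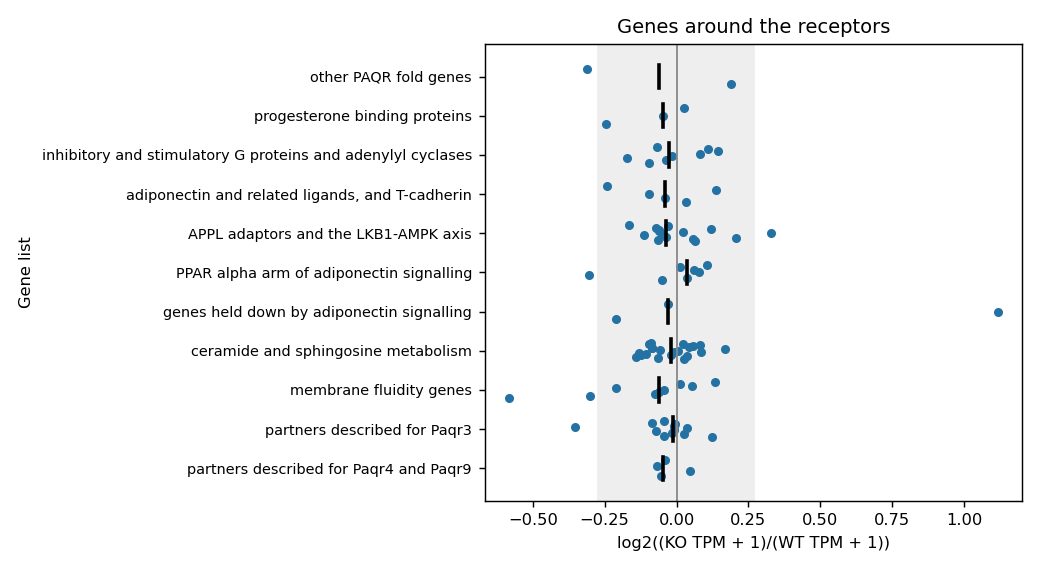
Log2 difference between KO and WT (x axis) of each gene past the minimum in the 11 related lists (y axis), without Pgrmc1. Each point is 1 gene, short black bars are list medians, and the grey band runs from -0.27 to 0.27, the 5th to 95th percentiles of all such genes. The list medians lie between -0.06 and 0.04, and G6pc is the point at 1.12.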

How the data were processed

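Liver RNA of 1 pooled library per genotype was sequenced by the authors as paired 100-base reads from a stranded total RNA kit. Per the labels and the methods, CASAVA 1.8.2, RSEM 1.2.09 and Bowtie were used with the mm10 genome. The deposited values are posterior mean TPM, and they add up to 1005325 for the KO library and 994702 for the WT library rather than to 1 round total. A second deposited table holds the authors' signal per library (EBSeq), in which the estimated reads are scaled by a size factor. Its probabilities and fold changes are the authors' own comparison and were not used. The most frequent value of that signal was taken as 1 read. Within 0.02 of a whole number, 78.4% of KO and 75.0% of WT values were whole, so no p-value was taken from counts. The 95% intervals rest on the same reads rounded to whole numbers, also for Adipor1, Adipor2, Paqr7 and Paqr9, whose reads were not all whole.

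Libraries were assigned to groups by the genotype label. The number of mice per pool comes from the study's supplement. A mean of at least 1 TPM over both libraries was required for counts and medians, with folds of 1.4 and 0.6 from the study's lists of changed genes. Named genes were all members, Pgrmc1, and from each list the most abundant, highest and lowest gene and any past the fold. Genes that this rule names and that are missing from the text are not reported here. Bmp2k and Pkmyt1 were added for their overlap. With 2 libraries there is 1 difference per gene, so no gene of like pattern was sought. Members and lists were chosen with earlier results of these data known. Of the list genes, 2 were matched by an older symbol. Coordinates are RefSeq on GRCm38, and strands, exons and sequences are GENCODE. The transcript with the longest coding part was used. Thresholds and intervals were tested on simulated whole counts with counting error only, for genes averaging at least 10 TPM. Paqr3, Paqr4, Paqr5, Paqr6 and Paqr8 lie below that level, so the simulation does not cover them. Scripts ran in Python 3.11.15 with scipy 1.17.1, pandas 2.3.3, numpy 2.4.6 and matplotlib 3.10.9.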

Additional observations from a re-analysis of the deposited data

How the results depend on the processing

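No paired analysis was possible because there is only 1 pooled library of each genotype, and for the same reason no replicate could be left out. Under a pseudocount of 0.1 TPM, centring on the median gene, the authors' means and rescaling without the 50 most abundant genes, all 28 values of the 7 single members moved by less than their counting error. Adipor1 changed sign with the authors' means and after centring, between -0.01 and 0.01, while Paqr9 ran from 0.23 to 0.24, Paqr4 from -0.62 to -0.32 and Paqr8 from -0.59 with the authors' means to -0.13 after centring. The median of the members went from 0.09 to -0.0054 with no minimum, which adds Paqr5, Paqr6 and Paqr8. The ratio of the summed family was 0.16 without Adipor2. The median of Mmd and Mmd2 was 0.19 with a minimum of 10 TPM, which leaves Mmd. Over all genes, 141 were past the fold upward and 35 downward. These counts were 280 and 70 with 0.1 TPM, 296 and 80 with the authors' means and 62 and 17 with a minimum of 10 TPM. They were 45 and 13 at folds of 2 and 0.5, and 627 and 640 at a fold of 1.2, where 1 member was up and 1 down. With the mirror of 1.4 as the limit, 118 were down. Beyond the settings themselves, the cause was not tested. Depth limits Paqr3, Paqr4, Paqr5, Paqr6 and Paqr8, and pooling limits all 9 members.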
